A study of Mus musculus with 33 samples.

Results

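Neural progenitor cells (NPCs) that had spent 12 days under the transcription factors Sox2, Klf4 and Myc (SKM) were compared with established pluripotent lines. The comparison takes 4 of the 33 mouse samples of the series. They are 2 libraries of NPC origin from day 12 with GFP in their names, 1 of the mouse embryonic stem cell line R1 ESC and 1 of SKM iPSC, an induced pluripotent line named after those factors. The lines formed the pluripotent side as 1 group, and each of the 37620 Ensembl genes of the count table is 1 row of the comparison. The rule that chose the samples used their names and no measured value.

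The day 12 cells came from what the labels call SKM secondary NPCs and grew in mouse ES medium to which doxycycline was added, the drug that switches on the factors in an inducible system. The lines were kept in mouse ES cell medium, for which no doxycycline is named. Pou5f1 (Oct4) is not among the factors in the name SKM. The extraction protocol gives a column kit for cultured cells and TRIzol for sorted cells, and no label says which libraries were sorted. Culture with doxycycline, and any sort or extraction that went with it, cannot be told apart from the cell state here. Which gene drives GFP is not in the labels. They do not say that the day 12 replicates came from separate cultures, and give 1 library per line. The p-values thus measure the spread between libraries, which the fit pools over all NPC days and the lines. The count column taken for SKM iPSC carries a 9 that the labels do not explain. MEF-derived day 12 libraries (mouse embryonic fibroblasts under the same factors, 2 libraries with the GFP label) and NPC libraries of days 0, 2, 4 and 8 (2 each) serve for reference.

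Pluripotency in mouse cells rests on a network of transcription factors around Pou5f1, Sox2 and Nanog, which hold up one another's transcription and that of many stem cell genes. During reprogramming the genes of the starting cell are turned down, an epithelial program appears, and stem cell genes come on in stages, some early and others late. A stable line keeps the network running from its own genes once the added factors are off. Late stem cell genes and germline genes, many of which are held silent by promoter DNA methylation in body cells, are commonly used to tell such lines from cells on the way.

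The 22 RNA-seq libraries held between 15902838 and 20102260 counts. The day 12 libraries of NPC origin held 17164950 and 17380267 counts, against 19798488 in R1 ESC and 19115548 in SKM iPSC. Mitochondrial genes took 4.44 and 4.47% of the counts in the day 12 cells, against 0.53 and 0.66% in the lines, and the part of this difference in the results below was not tested. Levels are given as CPM, counts scaled to a common library total, on library sizes scaled by the trimmed mean of M values (TMM). A gene was called when edgeR's quasi-likelihood test gave a Benjamini-Hochberg adjusted p under 0.05 over all genes tested.

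The day 12 cells and the lines differed in a large part of the transcriptome, in both directions. Of 15565 genes tested, 3282 were higher in the day 12 cells (21.1%) and 3095 were lower (19.9%), 6377 in all (41.0%). These shares are the background for each list count below. The median log2 fold change over all tested genes was -0.01. Of the called genes, 5441 differed by at least 1 on the log2 scale. At 3 or more, 1279 were higher and 1043 lower. The replicates of day 12 differed by 2-fold or more in 3.04% of tested genes and R1 ESC from SKM iPSC in 7.57%, while the mean of the day 12 cells differed from that of the lines in 38.4%. Library ranges of the groups did not overlap for 75.2% of tested genes. For 852 genes (5.47%) both day 12 libraries lay between R1 ESC and SKM iPSC. In the authors' deposited table, whose fold changes run from the lines over day 12, 2603 of the tested genes were marked as changed. Of these, 2580 were called here in the same direction and 0 in the opposite one. The authors' marks start at an absolute log2 fold change of 1.61.

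In bulk libraries, fewer cells of a type and less RNA per cell cannot be told apart, which holds for every level below. Calls thinned out with 3 libraries in place of 4. With 1 library left out in turn, 3042 of the called genes (47.7%) were called in each of the 4 fits, 1799 higher and 1243 lower. Of the called genes, 457 were lost in at least 1 of these fits because too few libraries were left above the minimum level. With the same genes tested throughout, an alternative added after the data were seen, 3373 (52.9%) were called in every fit, 1884 higher and 1489 lower. Sox2, Klf4, Pou5f1 and Lin28a, described next, were not among them.

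The factors themselves stood apart from the lines to unequal degrees. Myc, a driver of growth and proliferation, had 491 and 569 CPM in the day 12 cells, against 9.35 CPM in R1 ESC and 2.26 CPM in SKM iPSC. The groups were far apart, with a log2 fold change of 6.52 ± 0.57 (SE) and an adjusted p of 1.19e-05 by edgeR. Klf4, a zinc finger factor, had 418 and 472 CPM in the day 12 cells, against 248 CPM in R1 ESC and 136 CPM in SKM iPSC, a log2 fold change of 1.22 ± 0.40 (edgeR adjusted p = 0.0316). Sox2, a neural and stem cell factor, was at 292 and 368 CPM in the day 12 cells, against 519 and 533 CPM in the lines, a log2 fold change of -0.67 ± 0.22 (edgeR adjusted p = 0.0338). The counts do not separate transcripts of the added genes from those of the cells' own genes. The call of Klf4 was lost without SKM iPSC (edgeR adjusted p = 0.223), and that of Sox2 without R1 ESC (edgeR adjusted p = 0.0913) and without SKM iPSC (0.109). Without replicate 1 of the day 12 cells the edgeR adjusted p was 0.0702 for Klf4 and 0.222 for Sox2, and without replicate 2 it was 0.124 for Klf4 and 0.0504 for Sox2.

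Core stem cell genes were lower as a group. Of 34 tested members of the core pluripotency list, 31 were lower and 1 was higher, with a median log2 fold change of -3.19. The summed level of the list was 2268 and 2256 CPM in the day 12 cells, against 14514.7 CPM in R1 ESC and 12353.4 CPM in SKM iPSC. The distance from the lines was uneven between members. Pou5f1, the factor at the head of the network, had 293 and 196 CPM in the day 12 cells, against 441 and 422 CPM in the lines. Its log2 fold change of -0.82 ± 0.29 (edgeR adjusted p = 0.0442) was called with all 4 libraries and missed the threshold without R1 ESC (edgeR adjusted p = 0.133), without SKM iPSC (0.108) and without replicate 2 of day 12 (0.271). Lin28a, an RNA-binding protein that blocks let-7 maturation, had 168 and 186 CPM in the day 12 cells, above the 90.9 and 104 CPM of the lines. Its log2 fold change was 0.87 ± 0.28 (edgeR adjusted p = 0.0269), and the call was lost with any library left out (edgeR adjusted p between 0.0613 and 0.154).

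**Figure D1:**
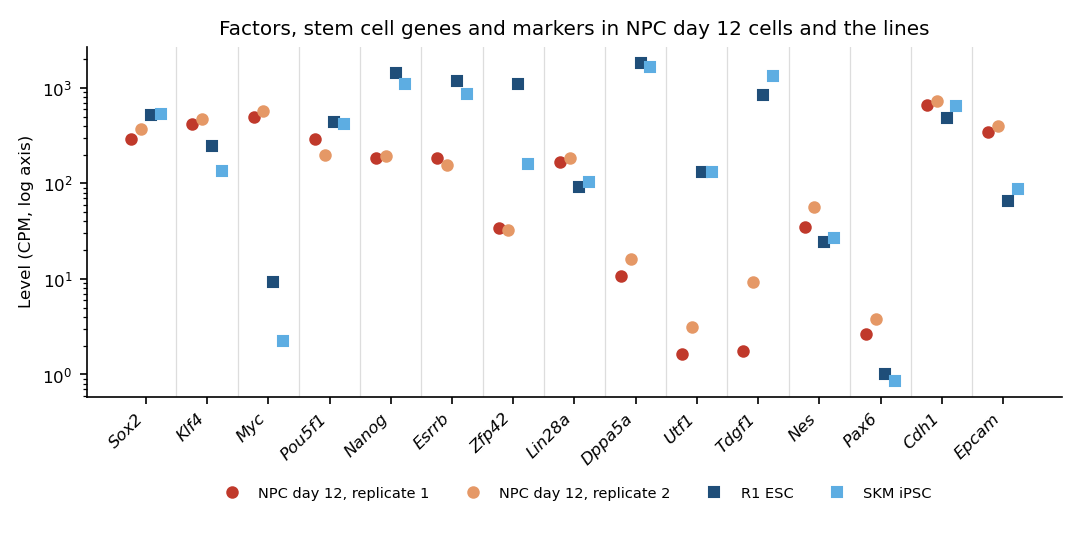
Levels of the factors, stem cell genes and marker genes in CPM on a log axis, 1 point per library, with the NPC day 12 replicates as circles and the lines as squares. Pou5f1 and Sox2 lie within about 1 log2 unit of the lines, while Dppa5a, Utf1 and Tdgf1 lie far below them and Myc far above.

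Nanog and Esrrb, further factors of the network, were detected in the day 12 cells well below the lines. Nanog had 186 and 195 CPM in the day 12 cells, against 1441 CPM in R1 ESC and 1091 CPM in SKM iPSC, a log2 fold change of -2.73 ± 0.60 (edgeR adjusted p = 0.00402). Esrrb had 186 and 156 CPM in the day 12 cells, against 1173 and 856 CPM in the lines (log2 fold change -2.56 ± 0.37). Tbx3, a T-box factor of naive stem cells, had 1.10 and 3.16 CPM in the day 12 cells, against 373 CPM in R1 ESC and 201 CPM in SKM iPSC, and Foxd3, a forkhead factor of the early epiblast, 0.276 and 0.268 CPM, against 34.3 and 11.2 CPM. Utf1, a chromatin protein of stem cells, had 1.66 and 3.16 CPM in the day 12 cells, against 131 and 130.5 CPM in the lines. Tdgf1 (Cripto), the co-receptor of Nodal, had 1.77 and 9.31 CPM in the day 12 cells, against 833 and 1333 CPM in the lines. The ranges of these 4 genes lie apart, as they do for 75.2% of all tested genes. All 4 kept the call with any library left out and the same genes tested.

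Late stem cell genes were lower as well. Of 21 tested members, 15 were lower and 1 higher, with a median log2 fold change of -3.64. Dppa5a, an RNA-binding protein of stem and germ cells, had 10.7 and 16.3 CPM in the day 12 cells, against 1826 CPM in R1 ESC and 1654 CPM in SKM iPSC. Its log2 fold change was -7.00 ± 0.38 (edgeR adjusted p = 1.85e-06). Tex19.1, a gene of germ and stem cells, had 1.88 and 3.42 CPM in the day 12 cells, against 170.5 and 185 CPM in the lines. Zfp42 (Rex1) had 34.3 and 32.3 CPM in the day 12 cells, while the lines differed from each other, with 1102 CPM in R1 ESC and 159 CPM in SKM iPSC. The day 12 cells were below both lines in each of these genes. The member that was higher, Rhox6, a homeobox gene named here after its values were seen, had 41.9 and 51.5 CPM in the day 12 cells, against 1.12 and 3.12 CPM in the lines.

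Set on the course of the NPC-derived cells, the core genes fell into different stages by their values, with no test between days run here. Pou5f1 had 0 CPM in both day 0 libraries and 392.4 and 236 CPM on day 8, so its level on day 12 was not above that of day 8. Nanog averaged 0.703 CPM on day 0 and 109 CPM on day 8. Dppa5a averaged 0.0453 CPM on day 0 and 1.78 CPM on day 8, and Zfp42 0 CPM on day 0 and 5.12 CPM on day 8, so both were still low on day 8. Myc averaged 62.5 CPM on day 0 and 950 CPM on day 8. For days 2 and 4 the library names were followed, although the stage given in the labels is day 0 and day 2 for them.

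**Figure D2:**
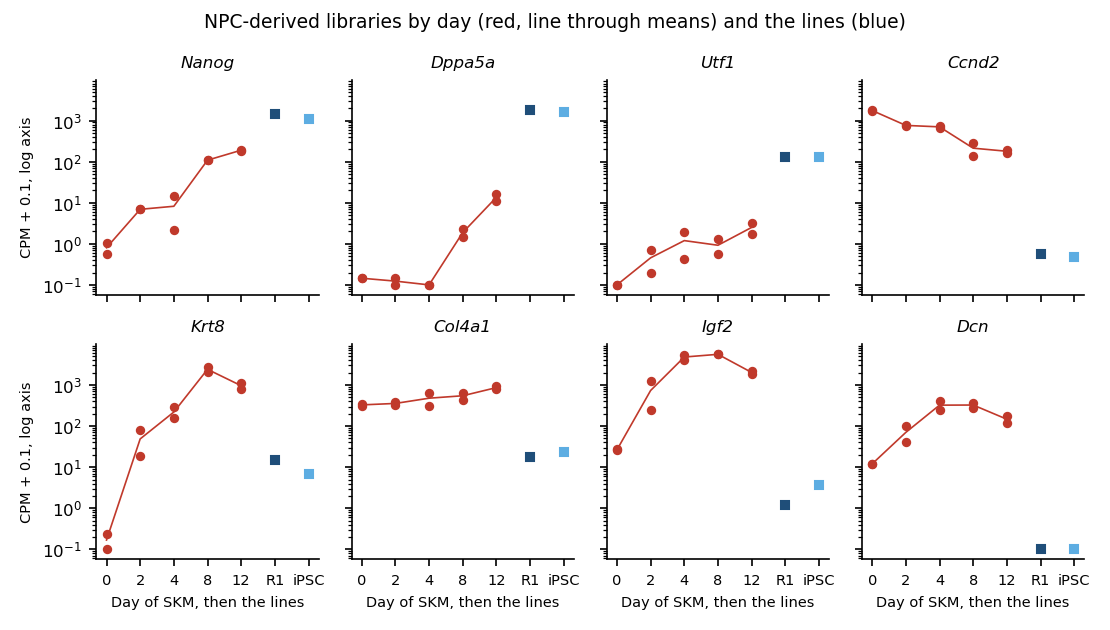
Levels in CPM + 0.1 on a log axis for 8 genes in NPC-derived libraries on days 0, 2, 4, 8 and 12 (red points, 2 libraries each, line through the means), then in R1 ESC and SKM iPSC (blue). Dppa5a and Utf1 end far below the lines, Ccnd2 is at its highest on day 0 and on day 12 still lies above them, and Dcn is at 0 counts in both lines.

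Germline genes were lower by wide margins. Of 26 tested members of a list of germline genes known to be sensitive to promoter methylation, 22 were lower and 1 was higher, with a median log2 fold change of -5.90, or -5.72 with the 3 members at 0 counts in the day 12 cells set at their bound. Their summed level was 43.9 and 51.1 CPM in the day 12 cells, against 920 CPM in R1 ESC and 1142 CPM in SKM iPSC. Most of the sum in the day 12 cells came from Piwil2, of the piRNA pathway, which was not called and lay above the lines, with 33.2 and 36.5 CPM in the day 12 cells, against 11.5 and 19.5 CPM in the lines. The higher member was Tdrd1, of the same pathway, with 4.80 and 3.05 CPM in the day 12 cells, against 0.559 and 1.24 CPM in the lines. Both are named after their values were seen. Most members passed the minimum level of 1 CPM in 2 libraries only with the help of a line, where they are high. For those a lower call was all but fixed in advance, so the counts and the median add no evidence of their own. With R1 ESC left out 9 of the members passed the minimum level and 4 were lower, and with SKM iPSC left out 9 passed and 3 were lower. With the same genes tested, 21 were lower without R1 ESC and 20 without SKM iPSC.

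Individual germline genes were near or at 0 counts in the day 12 cells. Fkbp6, an immunophilin needed for meiosis, had 0 counts in both day 12 libraries, against 75.5 CPM in R1 ESC and 76.3 CPM in SKM iPSC, at least 931-fold lower with a floor of 3 counts over the group. Tuba3a, a tubulin of the testis, had 0 counts in the day 12 cells, against 258 and 129 CPM in the lines, at least 2390-fold lower. Sohlh2, a helix-loop-helix factor of early germ cells, had 0.166 and 0.161 CPM in the day 12 cells, against 108 and 132 CPM in the lines (log2 fold change -9.46 ± 0.62, edgeR adjusted p = 7.44e-06). Dazl, an RNA-binding protein of germ cells named here after its values were seen, had 0.110 and 0.482 CPM in the day 12 cells, against 84.9 CPM in R1 ESC and 274 CPM in SKM iPSC. Among the largest falls were also Stra8, which licenses entry into meiosis, with 0 counts against 29.7 and 25.7 CPM in the lines, and Dmrt1, a factor of the male germline, with 1 count over both day 12 libraries against 35.1 and 35.1 CPM. These levels were low in the MEF-derived day 12 cells as well: Fkbp6 had 0.369 and 0.352 CPM there and Stra8 0.158 and 0 CPM.

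Promoters of these genes are shown for the E-box CACGTG. Of the 30 listed germline genes with a promoter in the RefSeq table of build GRCm38.p6, 13 hold it (43.3%). The same letters were found in 7.24% of all 27025 promoters and in 10.0% of those of tested genes. Each stretch runs from 250 bases before to 50 bases after the first listed gene start, 5′ to 3′ on the gene's strand. The motif reads the same on both strands and is in capitals. It was 1 of 7 motifs searched and was chosen after its matches were seen. Of the 13 genes with the motif, 13 were tested, 11 were lower and 1 higher in the day 12 cells, while of the 17 without it 10 were tested and 10 were lower. Of all tested genes 19.9% were lower. Most of the germline list passed the minimum level only with the help of a line. These counts thus cannot tell genes with the motif from those without it. Fkbp6 (chr5:135349995-135350294, minus strand) holds 2 matches and 21 CpG, Hormad1, a protein of the meiotic chromosome axis (chr3:95559427-95559726, plus strand), 2 matches and 24 CpG, Mael, of the piRNA pathway (chr1:166238695-166238994, minus strand), 1 match and 24 CpG, and Sycp3, of the synaptonemal complex (chr10:88459337-88459636, plus strand), 2 matches and 15 CpG. Sohlh2 (chr3:55181794-55182093, plus strand), with 17 CpG and no such letters in this window, is shown beside them.
Fkbp6: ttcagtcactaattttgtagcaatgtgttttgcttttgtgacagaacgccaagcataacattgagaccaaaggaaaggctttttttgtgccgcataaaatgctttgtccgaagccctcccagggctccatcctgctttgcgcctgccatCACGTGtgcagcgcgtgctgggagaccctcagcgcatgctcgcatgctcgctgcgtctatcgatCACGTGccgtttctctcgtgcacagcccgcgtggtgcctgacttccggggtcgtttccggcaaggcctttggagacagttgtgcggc
Hormad1: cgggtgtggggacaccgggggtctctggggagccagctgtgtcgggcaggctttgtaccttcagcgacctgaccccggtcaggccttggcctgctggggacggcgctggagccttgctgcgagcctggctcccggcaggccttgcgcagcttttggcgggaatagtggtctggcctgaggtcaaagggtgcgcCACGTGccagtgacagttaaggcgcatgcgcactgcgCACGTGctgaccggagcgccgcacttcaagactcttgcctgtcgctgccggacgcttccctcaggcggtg
Mael: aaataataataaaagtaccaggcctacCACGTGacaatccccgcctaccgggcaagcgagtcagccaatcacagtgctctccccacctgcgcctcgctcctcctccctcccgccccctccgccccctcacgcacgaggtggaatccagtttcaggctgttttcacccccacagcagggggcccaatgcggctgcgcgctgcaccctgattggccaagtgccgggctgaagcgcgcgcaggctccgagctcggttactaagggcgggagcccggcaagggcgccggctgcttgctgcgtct
Sycp3: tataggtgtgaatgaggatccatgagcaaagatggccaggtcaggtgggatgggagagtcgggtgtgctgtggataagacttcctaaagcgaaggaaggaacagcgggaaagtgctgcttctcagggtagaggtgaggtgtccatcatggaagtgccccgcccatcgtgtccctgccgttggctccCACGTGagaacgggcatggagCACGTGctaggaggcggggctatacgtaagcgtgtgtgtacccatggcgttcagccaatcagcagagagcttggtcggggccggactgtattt
Sohlh2: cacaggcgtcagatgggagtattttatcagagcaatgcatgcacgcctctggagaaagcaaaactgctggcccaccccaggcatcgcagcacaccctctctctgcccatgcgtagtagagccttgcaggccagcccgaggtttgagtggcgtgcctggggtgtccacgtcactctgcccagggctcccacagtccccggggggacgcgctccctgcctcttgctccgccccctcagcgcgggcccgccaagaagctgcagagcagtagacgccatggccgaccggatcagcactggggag
The median number of CpG in 300 bases was 18 for the germline promoters, 20 for those of tested genes and 11 for the 24 core pluripotency promoters in the table. Methylation was not measured in these libraries, and the files' own build is mm9, so the coordinates serve the sequences only.

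**Figure D3:**
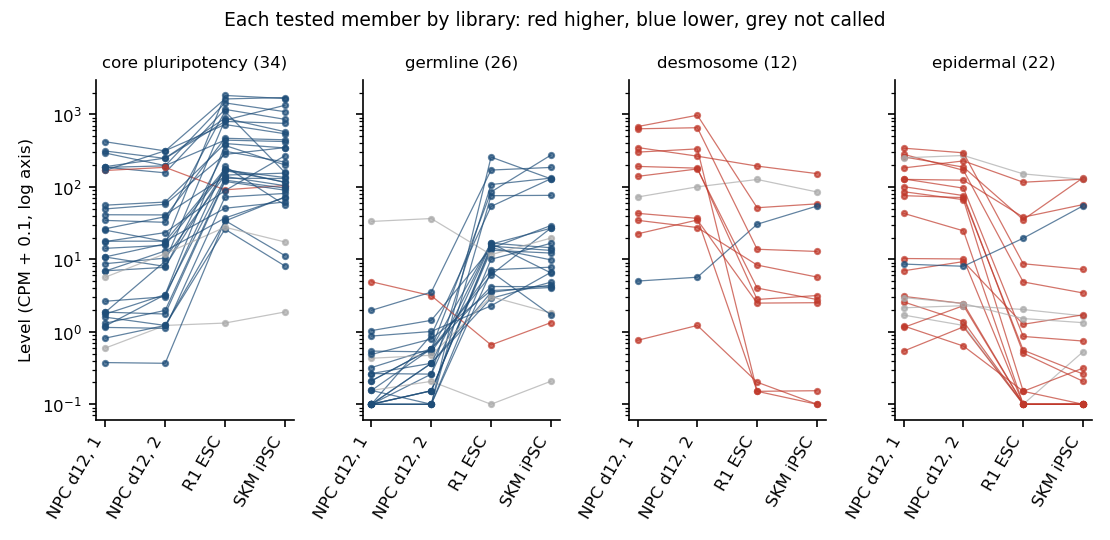
Levels in CPM + 0.1 on a log axis for every tested member of 4 gene lists, with the NPC day 12 replicates on the left and R1 ESC and SKM iPSC on the right, 1 line per gene. Blue genes were lower in the day 12 cells, red ones higher and grey ones not called: 31 of 34 core pluripotency genes and 22 of 26 germline genes are blue, while 10 of 12 desmosome and 17 of 22 epidermal genes are red. Most germline genes passed the minimum level only with the help of a line.

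Transcripts of the pathways that hold stem cells in place were lower too. Of 16 tested genes of LIF and Stat3, the cytokine pathway of mouse stem cell culture, 12 were lower and 2 higher. The list holds targets as well as receptor and signalling genes of the pathway, such as Lifr and Stat3. Klf5, a factor of the naive network, had 1.22 and 1.87 CPM in the day 12 cells, against 124 and 96.1 CPM in the lines (log2 fold change -6.14 ± 0.53, edgeR adjusted p = 1.085e-05). Icam1, an adhesion receptor, had 0.497 and 1.71 CPM in the day 12 cells, against 80.3 and 110 CPM in the lines. Fewer of the LIF and Stat3 genes were called lower without replicate 1 of the day 12 cells. Of 23 genes of the Nodal, Lefty and TGF-beta group 12 were lower and 4 higher, beside 19.9 and 21.1% of all tested genes. The higher share was thus near that of all genes. Nodal, the ligand, had 1.77 and 1.66 CPM in the day 12 cells, against 119 and 90.0 CPM in the lines, and Lefty1, its secreted inhibitor, had 1.05 and 1.02 CPM, against 72.1 and 81.0 CPM. Ligand, inhibitor and the co-receptor Tdgf1 were thus lower together. Among the 4 higher members was Thbs1, a matrix protein that can activate TGF-beta, with 55.3 and 81.8 CPM in the day 12 cells, against 0.254 and 0.377 CPM in the lines. The call of Thbs1 did not hold in every fit with a library left out.

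Genes of a Wnt list, which holds targets, ligands and receptors, went the same way in 11 of 20 tested, with 4 higher. Of all tested genes 19.9% were lower and 21.1% higher, so the higher share was near that of all genes. Axin2, the feedback inhibitor of the pathway, had 0.387 and 0.428 CPM in the day 12 cells, against 36.2 and 30.6 CPM in the lines (log2 fold change -6.33 ± 0.66, edgeR adjusted p = 3.49e-05). Tcf7, a DNA-binding partner of beta-catenin, had 0.662 and 1.55 CPM in the day 12 cells, against 66.4 and 84.2 CPM in the lines. Ccnd2, a cyclin D gene in the same list, went the other way, with 163 and 196 CPM in the day 12 cells, against 0.457 and 0.377 CPM in the lines (log2 fold change 8.73 ± 0.43). The NPCs of day 0 averaged 1760.1 CPM of Ccnd2. Of 15 Notch genes 7 were higher and 2 lower. The receptor Notch2 had 230 and 217 CPM in the day 12 cells, against 17.3 and 20.1 CPM in the lines, and the receptor Notch4 had 170 and 124 CPM, against 12.9 and 11.7 CPM. Id2, an inhibitor of helix-loop-helix factors and a target of BMP signals, had 206 and 175 CPM in the day 12 cells, against 2.64 and 2.37 CPM in the lines, although the BMP list as a whole was split, with 7 of 18 higher and 7 lower (3 to 6 higher and 3 to 5 lower with a library left out). In the lists of stem cell, germline, signalling, epithelial, matrix and Polycomb genes given here, counts of 4 or fewer changed by at most 2 with a library left out. Counts of 1 or 2 could thus be lost. The higher counts of the core, LIF, germline and Polycomb lists fell to 0 in at least 1 such fit.

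Epithelial genes were higher than in the lines, and so were those of desmosomes and keratins. The general epithelial marker Cdh1 (E-cadherin) had 661 and 724 CPM in the day 12 cells, against 480 and 639 CPM in the lines, and did not pass the test (log2 fold change 0.31 ± 0.25, edgeR adjusted p = 0.342). Epcam, an epithelial adhesion molecule, had 342 and 400 CPM in the day 12 cells, against 64.7 and 86.4 CPM in the lines (log2 fold change 2.30 ± 0.24, edgeR adjusted p = 3.29e-05). Of 32 tested genes of epithelial adhesion 18 were higher and 2 lower, with a median log2 fold change of 1.38. Ovol1, an epithelial repressor of mesenchymal genes, had 24.02 and 29.6 CPM in the day 12 cells, against 0.254 and 0.269 CPM in the lines.

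Desmosomes, the junctions that anchor keratin filaments, had 10 of 12 tested genes higher and 1 lower, with a median log2 fold change of 3.94. Pkp1, a plakophilin of the desmosome plaque, had 302 and 334 CPM in the day 12 cells, against 0.0508 CPM in R1 ESC and 0 CPM in SKM iPSC. The lines held 1 count between them, which gives a ratio of 12200 with an exact 95% counting interval from 2180 to 481000. Evpl (envoplakin) had 192 and 181 CPM in the day 12 cells, against 2.69 and 3.07 CPM in the lines, and Perp, a membrane protein of desmosomes and a p53 target, 632 and 655 CPM, against 13.7 and 12.8 CPM (log2 fold change 5.61 ± 0.27, edgeR adjusted p = 7.72e-07). Of 6 tested simple keratins 5 were higher and 1 lower. Krt8 had 1113 and 814 CPM in the day 12 cells, against 14.9 CPM in R1 ESC and 6.78 CPM in SKM iPSC, and Krt19 had 112 and 91.8 CPM, against 2.08 and 4.84 CPM. Krt42, the member that fell, had 1.27 and 0.749 CPM in the day 12 cells, against 23.5 and 16.1 CPM in the lines.

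Genes of stratified epidermis followed the desmosomes. Of 22 tested members 17 were higher and 1 lower, with a median log2 fold change of 5.57, or 3.83 with the 6 members at 0 counts in the lines set at their bound. Without R1 ESC 10 were higher. Krt14, a keratin of the basal layer, had 85.6 and 66.4 CPM in the day 12 cells, against 0.0508 and 0 CPM in the lines. Krt6a, a keratin of activated epidermis, had 43.0 and 24.6 CPM in the day 12 cells and 0 counts in the lines, at least 429-fold higher. Sprr1a and Ivl (involucrin), precursors of the cornified envelope, had 10.2 and 10.0 CPM and 2.98 and 2.35 CPM in the day 12 cells and 0 counts in the lines. The 6 epidermal markers used to check cell types summed to 389 and 281 CPM in the day 12 cells, against 35.3 CPM in R1 ESC and 134 CPM in SKM iPSC, and 4 of them were higher.

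The promoters of Ivl (chr3:92573686-92573985, minus strand) and Sprr1a (chr3:92485832-92486131, minus strand) are shown as examples of cornified envelope genes that hold the AP-1 site TGANTCA. This motif too was 1 of the 7 searched and was chosen after its matches were seen. The letters, searched on both strands and in capitals here, were found in 4 of the 14 epidermal promoters in the RefSeq table (28.6%), in 15.0% of the 20 epithelial adhesion promoters, in 13.3% of the 30 germline promoters, in 7.93% of all promoters and in 5.0% of those of tested genes. Both stretches hold 0 CpG, and the median of the epidermal promoters was 3 CpG.
Ivl: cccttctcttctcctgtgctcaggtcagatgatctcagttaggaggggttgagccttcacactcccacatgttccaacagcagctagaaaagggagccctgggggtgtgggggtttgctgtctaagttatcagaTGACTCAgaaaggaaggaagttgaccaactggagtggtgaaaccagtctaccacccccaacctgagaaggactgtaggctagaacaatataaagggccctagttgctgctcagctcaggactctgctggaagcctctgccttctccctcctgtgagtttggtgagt
Sprr1a: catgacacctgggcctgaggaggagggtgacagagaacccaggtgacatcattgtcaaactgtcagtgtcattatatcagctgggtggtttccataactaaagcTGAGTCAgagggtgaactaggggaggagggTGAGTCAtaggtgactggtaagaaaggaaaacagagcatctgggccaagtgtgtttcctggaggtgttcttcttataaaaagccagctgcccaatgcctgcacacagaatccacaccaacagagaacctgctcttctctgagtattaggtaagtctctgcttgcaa

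Of 20 tested AP-1 and immediate-early genes, 12 were higher in the day 12 cells, with a median log2 fold change of 2.40. These genes answer growth factors and stress within minutes, and AP-1 is a dimer of Fos and Jun proteins. Egr1, an early-response zinc finger factor, had 149 and 428 CPM in the day 12 cells, against 0.508 CPM in R1 ESC and 0.215 CPM in SKM iPSC (log2 fold change 9.62 ± 0.97, edgeR adjusted p = 2.93e-05). Fosb had 44.4 and 68.1 CPM in the day 12 cells, against 0.152 and 0.0538 CPM in the lines. Fosl1 (Fra-1) had 7.18 and 3.10 CPM in the day 12 cells and 2 counts in all in the lines. The replicates of day 12 differed widely in Egr1, yet both lay far above the lines. The NPCs of day 0 also had Egr1, at 642 CPM on average. The part of handling before lysis in these levels was not tested.

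Matrix genes were more often higher than lower. Of 38 tested mesenchymal and matrix genes 15 were higher and 4 lower. The median log2 fold change was 2.75, or 2.56 with the 4 members at 0 counts in 1 group set at their bound. Fbn1 (fibrillin), of elastic microfibrils, had 235 and 217 CPM in the day 12 cells, against 1.32 and 2.10 CPM in the lines (log2 fold change 7.05 ± 0.35). Dcn (decorin), a matrix proteoglycan, had 178 and 117 CPM in the day 12 cells and 0 counts in the lines, at least 1870-fold higher. Vim (vimentin) and Fn1 (fibronectin), common mesenchymal markers named here after their values were seen, were lower than in the lines. Vim had 11.5 and 15.0 CPM in the day 12 cells, against 343 and 259 CPM in the lines, and Fn1 77.0 and 178 CPM, against 871 and 1172 CPM. Vim averaged 3304 CPM in the NPCs of day 0. The fibroblast panel (Col1a1, Col1a2, Col3a1, Thy1, Pdgfrb and Twist2) summed to 24.8 and 21.9 CPM in the day 12 cells, against 9.45 and 5.76 CPM in the lines, with 1 of 6 higher and 3 of 6 under 1 CPM in the day 12 cells. The column names mention feeder cells for day 4 alone, where 1 library is named with feeder and the other without. Both entered the fit as replicates, so their difference counts as spread there. Col1a1, for example, had 851 and 55.3 CPM in them. The part of feeder cells in the matrix genes was not tested.

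**Figure D4:**
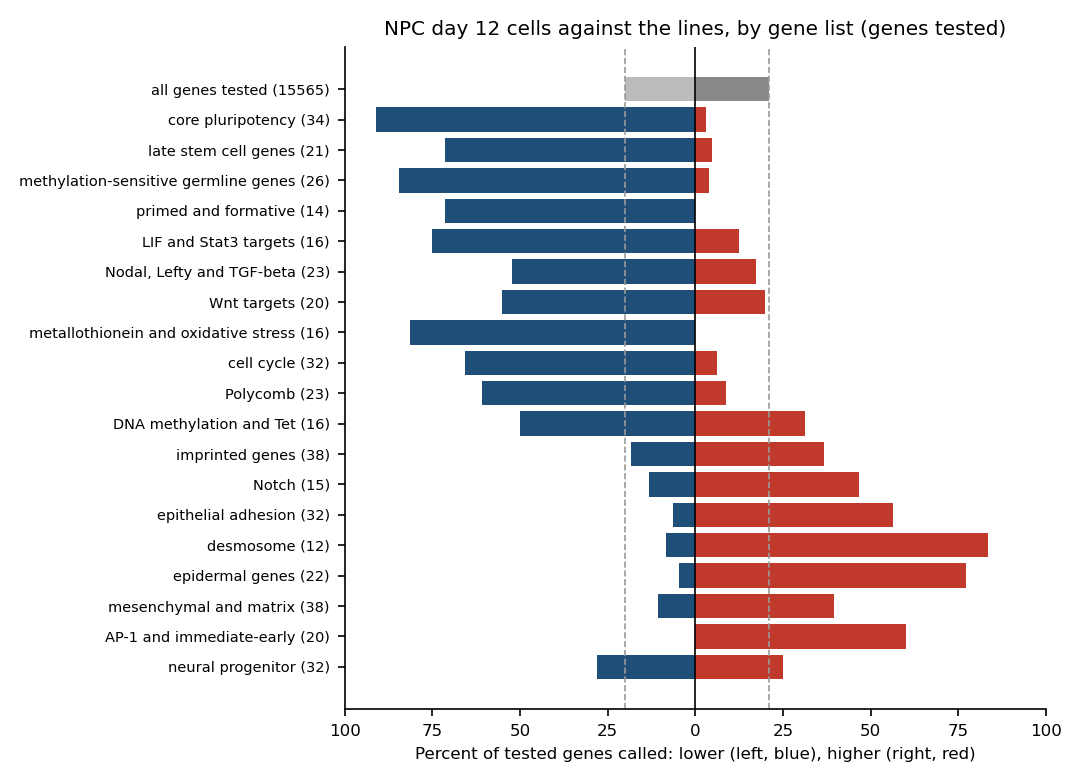
Percent of the tested genes of each list that were called lower (left, blue) or higher (right, red) in NPC day 12 cells against the lines, with the number tested in brackets. The grey bar and the dashed lines give all 15565 tested genes, of which 21.1% were higher and 19.9% lower. Stem cell, germline and cell cycle lists lie to the left and desmosome, epidermal and AP-1 lists to the right. Most germline genes passed the minimum level only with the help of a line.

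Imprinted genes, which are read from 1 parental copy, were higher in 14 of 38 tested members and lower in 7. Of all tested genes 21.1% were higher and 19.9% lower, so the lower share was near that of all genes. Igf2, a fetal growth factor, had 2194 and 1863 CPM in the day 12 cells, against 1.12 CPM in R1 ESC and 3.55 CPM in SKM iPSC (log2 fold change 9.77 ± 0.90, edgeR adjusted p = 1.63e-05). The NPC-derived cells averaged 26.4 CPM of Igf2 on day 0 and 5597 CPM on day 8. Peg10, a paternally expressed gene derived from a retroelement, had 553 and 928 CPM in the day 12 cells, against 17.7 and 11.2 CPM in the lines. It averaged 987 CPM on day 0 and 43.35 CPM on day 8. Usp29 had 0 counts in the day 12 cells, against 2.74 and 3.93 CPM in the lines, at least 40.7-fold lower. With any library left out, 3 or 4 of the members were lower.

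Polycomb and cell cycle genes were lower by smaller steps, and genes of DNA methylation were split. Of 23 Polycomb genes 14 were lower and 2 higher, and 9 were lower without replicate 1 of day 12. Cbx7, the chromodomain protein of stem cell Polycomb complexes, had 10.1 and 16.3 CPM in the day 12 cells, against 186 and 188 CPM in the lines (log2 fold change -3.82 ± 0.33, edgeR adjusted p = 1.18e-05). Of 16 genes of DNA methylation 8 were lower and 5 higher, against 4 to 7 lower and 1 to 3 higher with a library left out, the fewest lower without SKM iPSC and the fewest higher without replicate 2 of day 12. The lower count takes in Zfp42, given above, which stands in this list too. Dnmt3b, a de novo methyltransferase, had 6.51 and 8.56 CPM in the day 12 cells, against 40.7 and 81.5 CPM in the lines. Uhrf1, which guides maintenance methylation, had 128 and 116 CPM, against 686 and 673 CPM, and Tet1, which oxidises methylcytosine, had 39.0 and 75.5 CPM, against 400 and 379 CPM. The other Tet genes, named after their values were seen, were higher: Tet2 had 165 and 227 CPM in the day 12 cells, against 122 and 81.2 CPM in the lines, and Tet3 had 42.7 and 40.4 CPM, against 6.71 and 12.4 CPM. Of 32 cell cycle genes 21 were lower and 2 higher, with a median log2 fold change of -0.91, and 13 were lower without replicate 2 of day 12. Ccne1 (cyclin E) had 4.53 and 5.99 CPM in the day 12 cells, against 123 and 96.0 CPM in the lines, and Mcm3, of the replication helicase, had 112 and 105 CPM, against 685 and 642 CPM. The D cyclin Ccnd2, given above, was 1 of the 2 higher members.

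Neural genes and other genes expressed on day 0 took different courses between day 0 and day 12, with no test between days run here. Nes (nestin), the filament protein of neural progenitors, averaged 1316 CPM on day 0, had 2.63 and 2.25 CPM on day 8 and had 35.0 and 56.6 CPM in the day 12 cells, against 24.3 and 26.6 CPM in the lines, with no call (log2 fold change 0.86 ± 0.61, edgeR adjusted p = 0.287). Pax6, a neural progenitor factor, had 2.65 and 3.80 CPM in the day 12 cells, against 1.02 and 0.861 CPM in the lines (log2 fold change 1.78 ± 0.37, edgeR adjusted p = 0.0032). Of 32 neural progenitor genes 8 were higher and 9 lower, beside 21.1 and 19.9% of all tested genes. The Zic family of zinc finger factors was divided. Zic1 had 16.6 and 12.3 CPM in the day 12 cells and 2 counts in all in the lines, and Zic4 had 15.7 and 16.4 CPM and 0 counts in the lines, at least 205-fold higher. Zic2 had 1.22 and 2.73 CPM in the day 12 cells, against 56.0 and 124 CPM in the lines. Cav1 (caveolin) and Robo2, an axon guidance receptor, averaged 92.1 and 29.9 CPM on day 0. Cav1 had 18.3 and 29.7 CPM on day 8 and 52.0 and 68.4 CPM in the day 12 cells, with 0 counts in the lines. Robo2 had 19.97 and 40.8 CPM on day 8 and 28.7 and 32.2 CPM in the day 12 cells, with 0 counts in the lines. Nes and Cav1 were thus lower on day 8 than on day 12. Cd44, a receptor of hyaluronan, had 138 and 146 CPM in the day 12 cells, against 0.102 and 0.215 CPM in the lines, and averaged 83.2 CPM on day 0.

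Other genes among the 12 largest rises had 0 counts in both lines. Ccl7, a chemokine, had 87.1 and 61.9 CPM in the day 12 cells and was at least 947-fold higher. Trpv1, a heat-gated ion channel, had 60.2 and 57.1 CPM, Edn2, an endothelin, 43.3 and 57.0 CPM, and Adh7, an alcohol dehydrogenase that acts on retinol, 61.9 and 39.0 CPM in the day 12 cells. Klk14, a skin kallikrein, had 52.8 and 35.6 CPM and Vtcn1, an immune checkpoint ligand, 25.9 and 24.2 CPM. On day 0, Trpv1 averaged 0.0677 CPM and Edn2 and Vtcn1 had 0 CPM.

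Markers of other cell types were checked in panels of 6 genes, of which 5 were found for neural progenitors. The pluripotent panel (Pou5f1, Nanog, Zfp42, Esrrb, Dppa5a and Utf1) summed to 712 and 599 CPM in the day 12 cells, against 6114 and 4312 CPM in the lines, and all 6 genes were lower. On day 0 it averaged 3.47 CPM, so the day 12 cells lie between the starting cells and the lines in it. The neuron panel summed to 1002 and 839 CPM in the day 12 cells, against 382 and 440.3 CPM in the lines, and 5 of 6 markers were higher. Map2, a microtubule protein of dendrites, had 155 and 183 CPM in the day 12 cells, against 3.51 and 4.04 CPM in the lines. In the whole neuron list 9 of 26 tested genes were higher and 5 lower, beside 21.1 and 19.9% of all tested genes. Without replicate 1 of day 12, 5 were higher. The neural progenitor panel summed to 37.9 and 61.2 CPM in the day 12 cells, against 25.4 and 36.3 CPM in the lines, with 1 higher, and averaged 2847 CPM on day 0. The astrocyte panel summed to 79.2 and 83.1 CPM in the day 12 cells, against 73.7 and 91.0 CPM in the lines, with 1 higher and 1 lower. What part cells of other types had in the results was not tested.

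Panels of cells outside the nervous system gave mixed values. The macrophage panel summed to 37.5 and 39.6 CPM in the day 12 cells, against 19.97 and 8.72 CPM in the lines, and 5 of 6 markers were under 1 CPM in the day 12 cells. Nearly all of the day 12 sum was Cd68, at 36.7 and 38.0 CPM. The whole macrophage list summed to 41.7 and 45.9 CPM in the day 12 cells, against 143 and 161 CPM in the lines. Of its 7 tested genes 1 was higher and 1 lower, beside 21.1 and 19.9% of all tested genes. The endothelial panel summed to 113 and 105 CPM in the day 12 cells, against 8.59 and 16.0 CPM in the lines. Tie1, an endothelial receptor in it, had 77.0 and 62.6 CPM, against 0.102 and 0.377 CPM, while Pecam1, an adhesion molecule outside the panel that mouse stem cells also carry, was lower, at 4.69 and 5.62 CPM, against 147 and 163 CPM. The whole endothelial list, with Pecam1 in it, summed to 160 and 164 CPM in the day 12 cells, against 250 and 262 CPM in the lines. Of its 10 tested genes 3 were higher and 2 lower, beside 21.1 and 19.9% of all tested genes. The trophoblast panel summed to 10.3 and 18.3 CPM in the day 12 cells, against 11.7 and 19.6 CPM in the lines, although 2 of the 6 markers were higher. In the whole trophoblast list 5 of 10 tested genes were higher and 1 lower, and 2 were higher without R1 ESC. Elf5, a trophoblast stem cell factor, had 3.20 and 5.57 CPM in the day 12 cells and 0 counts in the lines, and Krt7, a keratin of simple epithelia, had 55.4 and 70.2 CPM, against 6.56 and 9.85 CPM. The call of Krt7 did not hold in every fit with a library left out. In the primitive endoderm panel, 5 of 6 markers were under 1 CPM in the day 12 cells, with sums of 17.8 and 17.0 CPM, against 4.68 and 8.18 CPM in the lines, and 1 was higher and 2 lower. In the whole endoderm list 8 of 14 tested genes were higher and 3 lower (1 lower with any library left out), with a median log2 fold change of 2.31 and sums of 2052 and 2300 CPM in the day 12 cells, against 110 and 102 CPM in the lines. Genes of basement membrane made up most of these sums. Col4a1 and Col4a2, the chains of basement membrane collagen, had 793 and 940 CPM and 615 and 705 CPM in the day 12 cells, against 17.9 and 23.0 CPM and 8.95 and 10.1 CPM in the lines. Gata4, an endoderm factor named after its values were seen, had 17.1 and 15.3 CPM in the day 12 cells, against 1.98 and 3.33 CPM in the lines.

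The MEF-derived day 12 cells were set beside the NPC-derived ones as a test of whether the starting cell left a difference at this stage. Both groups are compared with the same lines, so their distances from the lines share those libraries, and the test was made between the day 12 groups directly. Of 16188 genes tested, 0 were called by edgeR (0.0%), with a smallest adjusted p of 0.149. At an unadjusted edgeR p under 0.05 there were 860 genes, about as many as that threshold passes when no gene differs. DESeq2 called 70 genes, 12 higher and 58 lower in NPC-derived cells, and limma-voom with quantile normalization 3, all 3 higher. A threshold missed does not show that the groups are alike. In simulated data the edgeR test called 105 of 200 genes changed by 2 on the log2 scale, and 3 of 200 changed by 1. Robo2 had 28.7 and 32.2 CPM in NPC-derived cells, against 4.22 and 8.04 CPM in MEF-derived cells, a log2 fold change of 2.30 with an edgeR adjusted p of 0.174. Dnmt3b had 6.51 and 8.56 CPM in NPC-derived cells, against 30.4 and 30.7 CPM in MEF-derived cells, a log2 fold change of -2.03 with an edgeR adjusted p of 0.204. Utf1 had 1.66 and 3.16 CPM in NPC-derived cells, against 14.5 and 12.4 CPM in MEF-derived cells (edgeR adjusted p = 0.425). The library ranges were apart in each of these genes, which were picked after the values were seen. How many of all tested genes had ranges apart was not counted for this comparison, so ranges apart add no evidence here.

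Summed levels of the day 12 groups overlapped in the core list and lay apart in others. The core pluripotency list summed to 2268 and 2256 CPM in NPC-derived cells, against 1986 and 2292 CPM in MEF-derived cells. The late stem cell list summed to 433 and 421 CPM in NPC-derived cells, against 571 and 735 CPM in MEF-derived cells, with a median log2 fold change of -0.91 and 0 members called by edgeR. Dppa5a had 10.7 and 16.3 CPM in NPC-derived cells, against 30.3 and 36.3 CPM in MEF-derived cells (log2 fold change -1.32, edgeR adjusted p = 0.307). Tdgf1 had 1.77 and 9.31 CPM in NPC-derived cells, against 24.3 and 22.2 CPM in MEF-derived cells (log2 fold change -2.08, edgeR adjusted p = 0.592), and Tbx3 had 1.10 and 3.16 CPM, against 13.1 and 14.6 CPM (log2 fold change -2.71, edgeR adjusted p = 0.376). Each of these genes was lower in both NPC-derived libraries without passing the threshold. Nanog and Esrrb went the other way, also without a call. Nanog had 186 and 195 CPM in NPC-derived cells, against 98.9 and 127 CPM in MEF-derived cells. Esrrb had 186 and 156 CPM in NPC-derived cells, against 123 and 134 CPM in MEF-derived cells. The median log2 fold change of the core list between the day 12 groups was -0.1. The germline list summed to 43.9 and 51.1 CPM in NPC-derived cells, against 86.5 and 115 CPM in MEF-derived cells. The desmosome list summed to 2471 and 2790 CPM in NPC-derived cells, against 2962 and 3106 CPM in MEF-derived cells.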

How the data were processed

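RNA was sequenced in 22 libraries, and the 4 compared here, with the NPC course and the MEF-derived day 12 cells beside them, come from 2 tables of raw counts per Ensembl gene that the authors deposited. FastQC, STAR 2.5.1b and build mm9 are named per the submitters' processing notes. The counter and annotation are not given in the sources used here. The deposited tables also hold the authors' log2 fold changes of the lines over day 12 and the authors' adjusted p-values, with no test named. The table is named for another unit, but its values are whole numbers with unequal totals, and a count model was fitted. The tables held 37999 lines for 37620 genes; 307 genes were listed more than once and kept once, 27 symbols turned into dates were restored, and 16079 genes lacked a symbol, with 1.09 to 1.40% of a library's counts in the comparison. Strandedness is not stated, so overlapping genes and genes with near-identical copies are uncertain.

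Genes were tested with edgeR 4.0.16 under R 4.3.3 (TMM, quasi-likelihood, Benjamini-Hochberg) on the 12 libraries of the NPC table with the lines as 1 group, for genes with at least 1 CPM in at least 2 libraries. NPC-derived and MEF-derived day 12 cells were compared in a fit of all 22 libraries. SE was taken from the fitted log2 fold change divided by the root of its F statistic. Levels are TMM-scaled CPM over 22 libraries. DESeq2 1.42.0 and limma 3.58.1 served as alternatives, and the fits were tested on simulated data. Intervals and floors (3 counts over a group's libraries) cover counting error alone. Promoters came from RefSeq, GRCm38.p6. Scripts ran in Python 3.11.15.

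The members, the 49 gene lists and the naming rule were chosen with earlier results of these data known. The rule takes the 15 genes of the plot of core genes, up to 4 called members per list of largest change with a mean of at least 1 CPM, and the 12 largest rises and 12 largest falls with a mean of at least 5 CPM, ranges apart and a proper symbol. It took 196 genes, of which 194 were called; the text prints a part, chosen after the values were seen.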

Additional observations from a re-analysis of the deposited data

How the results depend on the processing

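With 1 library left out, the comparison with the lines gave between 4121 and 4510 called genes, between 2208 and 2516 higher and between 1836 and 2047 lower. With the same genes tested throughout, an alternative chosen after seeing the data, these were between 4200 and 4838 called, between 2268 and 2584 higher and between 1877 and 2324 lower (1877 without replicate 1 of day 12 and 1924 without replicate 2). Of all called genes, 5 changed sign without R1 ESC and 1 without SKM iPSC, and 0 without either day 12 replicate. Other scalings, filters, DESeq2, limma-voom and other sets of libraries gave between 5341 and 6835 called genes. Of the 194 called named genes, 0 reversed in direction under any alternative run, and 156 stayed called with each library left out and the same genes tested, against 138 with the filter applied anew. List counts were recomputed with each library left out. Without R1 ESC, 0 mitochondrially encoded genes were called, against 6 with all libraries. Between the day 12 groups, where edgeR called 0 genes, DESeq2 called 70 (12 higher, 58 lower), limma-voom 3 (3 higher, 0 lower), no filter on low counts 232 (17 higher, 215 lower), and leaving out a library between 0 and 14 (higher 0 to 1, lower 0 to 13); the cause was not tested. The replicate block gave 0. Same-numbered replicates of the day 12 groups deviated together (correlation 0.503 over 16188 genes), but with 2 pairs and no shared source in the labels they share a number alone. No paired analysis was possible for the lines because their labels carry no replicate number. With 2 libraries a group, small differences could not be called, and genes at 0 counts are known to the floor of 3 counts.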

Other observations

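Transcripts of mitochondrial genes were higher in the day 12 cells than in the lines. CYTB had 7729 and 6939 CPM in the day 12 cells, against 711 and 852 CPM in the lines, and COX1, a subunit of cytochrome oxidase, had 20636 and 20887 CPM, against 2499 and 3493 CPM. Of 9 tested mitochondrially encoded genes 6 were higher, and 0 were called without R1 ESC. Between replicates of earlier days the mitochondrial share also differed, with 3.20 and 0.600% on day 2. Of 26 nuclear genes of the respiratory chain 3 were lower in the day 12 cells, and 0 without replicate 2 of day 12. This is a smaller share than the 19.9% lower among all tested genes. Extraction and cell state cannot be told apart as to these levels.

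Antioxidant genes were lower, while lysosomal genes were lower about as often as all tested genes. Of 16 genes of metallothioneins and oxidative stress 13 were lower, and between 4 and 10 with a library left out. Gclm, of glutathione synthesis, had 48.6 and 43.7 CPM in the day 12 cells, against 131 and 173 CPM in the lines. Of 19 lysosomal genes 5 were lower, beside 19.9% of all tested genes. Hexa, a lysosomal hexosaminidase, had 21.7 and 25.7 CPM in the day 12 cells, against 150 and 144 CPM in the lines. Of 21 genes of sterol synthesis 8 were lower, with 2 without R1 ESC, 3 without either day 12 replicate and 8 without SKM iPSC. Apoe, the lipid carrier, had 19.7 and 30.5 CPM in the day 12 cells, against 677 and 790 CPM in the lines. Interferon-stimulated genes were split, with 7 of 21 tested higher and 5 lower, beside 21.1 and 19.9% of all tested genes. The interferon-inducible Ifitm1 and Ifitm3 had 0.0552 and 0.161 CPM and 0.442 and 0.375 CPM in the day 12 cells, against 113 and 94.0 CPM and 73.6 and 89.6 CPM in the lines, whereas Irf7, a regulator of interferon genes, had 5.69 and 5.89 CPM, against 0.457 and 0.108 CPM.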
